A study of Mus musculus with 2 samples.

Results

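Cells labelled smooth muscle in the mouse stomach were described at E15, at E19 and in the newborn. They were the cells with the deposited class label Smooth Muscle and a stomach tag, 384 of the 7808 cells of the study and of the 1027 cells with that label. E15 gave 111 of them, E19 160 and the pup 113, out of 742, 1403 and 618 stomach cells. All mice were wild-type C57BL/6 at embryonic day 15 (E15), at embryonic day 19 (E19) or 2 days after birth (pup). The sample labels give 6, 2 and 2 mice for these stages, whereas the study's methods state that 3 mice were combined. Esophagus, GE-SCJ (the gastroesophageal squamocolumnar junction) and stomach were dissected, dissociated with collagenase II, tagged by region and stage (10x Genomics CellPlex, 3′ chemistry) and sequenced as 1 pool. No adult cells with a stomach tag were in the files used here, so the stomach series ends in the pup. Cells carry no record of their mouse. Each stage was therefore 1 sample, no difference between stages or regions could be tested, and every interval covers counting error only.

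The unit of measurement is the unique molecular identifier (UMI), which marks 1 captured transcript. Stomach smooth muscle held 1653158 UMIs at E15, 1930669 at E19 and 558230 at the pup stage, with medians of 13329, 11412 and 4586 UMIs per cell, of which medians of 2.50, 2.94 and 2.50% were mitochondrial. The pup cells were the shallowest, and only genes with at least 100 UMIs over both groups entered a comparison (measured genes). Levels (CPM) are the summed UMIs of a gene per 1000000 summed UMIs of the group, and 3′ counts do not scale with transcript length. Ratios are log2 ratios of CPM after 1 UMI was added to each sum, with the 95% counting interval in brackets, and a gene is past the fold where the ratio is 1 or more in either direction.

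Smooth muscle of the gut wall contracts when calcium, through calmodulin, activates myosin light chain kinase, which phosphorylates the regulatory light chain of smooth muscle myosin so that it can pull on actin. Much of this apparatus is transcribed by serum response factor with its partner myocardin, which acts at CArG boxes near contractile genes. In the embryonic stomach the muscle forms from mesenchyme that receives hedgehog signals from the epithelium, and it comes to lie among fibroblasts, enteric neurons, interstitial cells of Cajal and vessels.

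CArG boxes could be seen in the start regions of several genes on the list of 32 contractile genes. RefSeq start regions of GRCm38.p6 were found for 28 of them, and the 250 bases before each start site were searched. The box is a palindrome in form, so both strands were covered. A CArG box was present in 5 of the 28 genes (17.9%), against 1.62% of 27025 genes. With up to 1 G or C allowed among the inner bases, 10 of the 28 genes had a match (35.7%), against 9.78% of all genes. No match was found for *Tagln*, *Actg2*, *Myh11*, *Cnn1* or *Des*. That does not show that they lack a box, since genes without a start region and bases beyond the 250 were not searched. None of the 7 fibroblast marker genes with a start region had either. The sequences printed here are from genes whose transcripts differed past the fold between stages, and the box is in capitals. *Myl9* encodes the myosin regulatory light chain, *Myl6* the essential light chain and *Vcl* vinculin, which ties actin to adhesions. These 3 hold the strict box, at chr2:156775293-156775322 (plus strand), chr10:128493040-128493069 (minus strand) and chr14:20929161-20929190 (plus strand). *Synm* (synemin, a partner of desmin) and *Acta2* (smooth muscle alpha-actin) hold boxes with 1 inner G or C, at chr7:67759962-67759991 (minus strand), chr19:34255438-34255467 (minus strand) and chr19:34255388-34255417 (minus strand). Distances are to a RefSeq start site. The *Myl6* box and both *Acta2* boxes lie inside the gene spans of the annotation used for gene positions. These spans are chr10:128490860-128494145 for *Myl6* and chr19:34241090-34255590 for *Acta2*. Their boxes thus precede a start within the span and not its outer end. A match describes these letters and not binding in these cells.
Myl9, 161 bases before the start: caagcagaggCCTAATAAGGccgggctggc
Myl6, 50 bases before the start: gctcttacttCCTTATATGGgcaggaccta
Vcl, 227 bases before the start: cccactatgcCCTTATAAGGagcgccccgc
Synm, 239 bases before the start: caacggggagCCTCATAAGGtgtcccagat
Acta2, 84 bases before the start: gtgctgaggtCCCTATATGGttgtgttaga
Acta2, 34 bases before the start: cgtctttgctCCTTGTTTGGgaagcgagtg

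The 4 marker genes were abundant in the labelled cells at every stage, although the authors named the classes from expression, so this describes the label and is no independent check of it. *Acta2* (chr19:34241090-34255590, minus strand, GRCm38) was at 11378 CPM (95% interval 11216 to 11542) at E15, 16939 CPM (95% interval 16756 to 17124) at E19 and 8437 CPM (95% interval 8198 to 8682) in the pup. Stomach cells labelled Stromal held 469, 1423 and 517 CPM of it at the same stages. *Tagln* (transgelin, chr9:45929619-45936058) was at 7905 (E15), 13652 (E19) and 8119 CPM (pup). *Actg2* (the enteric gamma-actin, chr6:83512905-83536265) was at 7482 (E15), 14341 (E19) and 2945 CPM (pup), and *Myh11* (smooth muscle myosin heavy chain, chr16:14194535-14291372) at 4069 (E15), 4637 (E19) and 1983 CPM (pup). All 4 were highest at E19, and all but *Tagln* were lowest in the pup. Every labelled cell at E15 and E19 held *Acta2*, but 9 of the 113 pup cells, all in cluster 14, had 0 UMIs of it.

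Genes that define neurons, leukocytes and endothelium were near 0 in these cells. The 12 neural markers summed to 22.99, 21.8 and 21.5 CPM at E15, E19 and pup, the 10 immune markers to 26.6, 21.2 and 25.1 CPM, and the 10 endothelial markers to 40.5, 35.7 and 87.8 CPM, with *Cdh5* at 0 UMIs throughout. *Pgc*, a pepsinogen of gastric glands and the most abundant of 14 epithelial markers here, was at 613 (E15), 1471 (E19) and 1409.8 CPM (pup), and stromal cells held 769.5, 837 and 1429 CPM of it. Hemoglobin transcripts were uneven between cells. At E15, 10890 of 11347 hemoglobin UMIs lay in 2 cells, and at E19 3206 of 3689 lay in 2 cells.

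The most abundant transcripts, leaving out mitochondrial and ribosomal protein genes, were largely contractile in the embryo. At E15 the first 10 were *Acta2*, *Gm42418*, *Malat1*, *Tagln*, *Tmsb4x*, *Actb*, *Actg2*, *Myl6*, *Tpm1* and *Tpm2*. At E19 *Acta2*, *Actg2* and *Tagln* led, and *Mylk* (myosin light chain kinase, 7012 CPM) was among the 10. The pup differed in its leading transcripts. *Gm42418*, a locus that overlaps ribosomal RNA, was at 23164 CPM in the pup against 9209.6 and 11992 CPM at E15 and E19. The nuclear RNA *Malat1* was at 8851, 7981 and 18901 CPM, and *Col3a1*, a fibrillar collagen, entered the 10 at 4139.9 CPM. Stromal cells also held more *Gm42418* in the pup, at 12448, 16895 and 22355 CPM. The part of this shift in the other pup differences was not tested.

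The pup label was made up differently from the embryonic one. In the cluster numbers deposited with the labels, cluster 2 held 109 of 111 cells at E15 and 154 of 160 at E19, but 12 of 113 in the pup, where cluster 14 held 100 (88.5%, 95% interval 81.1 to 93.7%) and a further cluster held 1. Cluster 14 held only 2 of the cells at E15 and 6 at E19. GE-SCJ smooth muscle was alike, with 2 of 131 cells in cluster 14 at E15, 2 of 190 at E19 and 95 of 119 in the pup, whereas the esophagus had 3 of 22 in the pup. Against cells without the smooth muscle label, the 10 leading genes of cluster 2 included *Smpx*, *Pcp4*, *Actg2*, *Ckm* and *Cnn1*, and those of cluster 14 included *Mchr1*, *Enpp2*, *Tagln*, *Lmod1* and *Cnn1*. Against all other cells, those of cluster 2 included, the 10 leading genes of cluster 14 held none of the 4 markers and 1 red cell gene, *Hbb-y*. Stages are therefore compared over the whole label and again by cluster number. The 12 pup cells of cluster 2 held 83927 UMIs, so a gene at 0 there may be at up to 35.7 CPM, the level of 3 counts, and the 100 of cluster 14 held 468034, where that level is 6.41 CPM.

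Contractile genes took up a smaller part of the transcriptome of most pup cells. The 32 genes made up a median of 7.17% (quartiles 6.26 and 8.66%, range 1.14 to 13.95%) of the UMIs of a cell at E15, 10.9% (quartiles 7.87 and 13.6%, range 1.86 to 21.8%) at E19 and 3.61% (quartiles 1.57 and 6.09%, range 0.505 to 19.9%) in the pup. Within the pup the median was 8.56% (quartiles 5.34 and 11.8%, range 2.58 to 19.9%) in cluster 2 and 3.25% (quartiles 1.48 and 5.24%, range 0.505 to 11.5%) in cluster 14. The lower quartile of pup cluster 14 lay above the upper quartile of pup stromal cells (0.569%), whose median was 0.444%, but its upper quartile lay below the lower quartiles of cluster 2 at E15 and E19. Over cells of 1 pool, this share and the total UMIs of the cell had Spearman's rho of 0.06 at E15 (111 cells), 0.22 at E19 (160 cells) and 0.31 in the pup (113 cells).

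**Figure D1:**
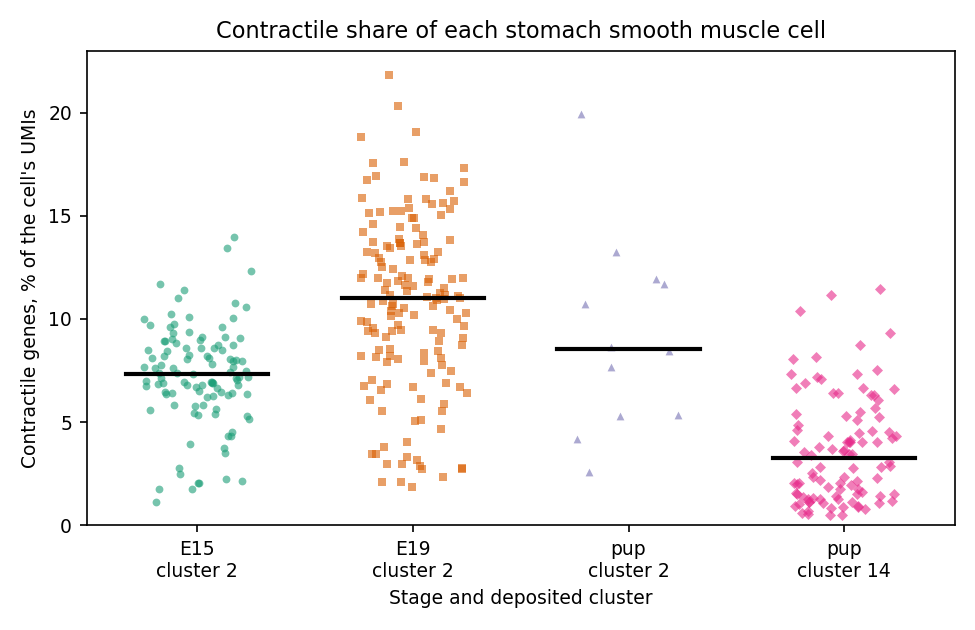
Share of each stomach smooth muscle cell's UMIs that came from the 32 contractile genes (vertical axis, percent), by stage and deposited cluster, with 1 point per cell and a bar at the median of each group. The median is 11.03% in cluster 2 at E19 and 3.25% in pup cluster 14, and the 12 pup cells of cluster 2 spread from 2.58 to 19.9%.

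Between E15 and E19 few genes were past the fold, and desmin, synemin, muscle creatine kinase and phospholamban were among those higher at E19. In all, 71 of 5173 genes were at least 2-fold higher (1.37%) and 75 at least 2-fold lower (1.45%), and the median of all genes was -0.14. Scaling by the median of ratios gave 99 higher and 52 lower genes. Within cluster 2 alone, 75 of 5029 genes were at least 2-fold higher (1.49%) and 83 at least 2-fold lower (1.65%). On the contractile list, of 29 measured members of 32, 4 were at least 2-fold higher and 0 at least 2-fold lower, with a median log2 ratio of 0.38, and the list together took 71219 CPM at E15 and 107505 CPM at E19. *Des* (desmin, the intermediate filament of muscle) was at 300.03 CPM (95% interval 274 to 328) at E15 and 1327 CPM (95% interval 1276 to 1379) at E19, a log2 ratio of 2.14 (2.00 to 2.28). *Synm* was at 99.2 and 430.4 CPM, a ratio of 2.11 (1.87 to 2.36). *Tpm2* (a tropomyosin) and *Hspb6* (a small heat shock protein of muscle) followed at 1.05 and 1.18. The contractile list thus stood higher at E19 by its median and its sum, with 4 of 29 genes past the fold against 1.37% of all genes.

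Genes outside that list also marked the E19 cells. *Ckm* (muscle creatine kinase) was at 7.86 CPM at E15 and 279 CPM at E19, the largest ratio of the comparison by the naming rule at 5.04 (4.28 to 5.92). *Pln* (phospholamban, which restrains the calcium pump of the sarcoplasmic reticulum) was at 39.3 and 265 CPM, a ratio of 2.73 (2.36 to 3.13). *Cryab* (a small heat shock protein that binds desmin) and *Aoc3* (a surface amine oxidase of smooth muscle) had ratios of 2.46 and 2.50. *Enho*, *Gkn3*, *Abi3bp*, *Fam129a*, *Rims1* and *Tinagl1* completed the 12 largest, between 1.91 and 2.49. *Gkn3*, a gene of secretory gastric epithelium, rested on 1 cell, which held 193 of its 238 UMIs at E19, whereas *Ckm* was found in 105 of 160 cells. *Ckm* is also 1 of 14 skeletal muscle markers, which summed to 47.8 (E15), 374 (E19) and 50.2 CPM (pup). Most of the E19 sum was *Ckm*, followed by *Acta1* (34.2 CPM) and *Tnnt3* (32.6 CPM), while *Myod1*, *Pax7* and *Myh3*, which define that lineage, were at 0 UMIs at each stage. *Gja1* (connexin 43, a gap junction protein) was at 32.7 and 74.6 CPM (1.17), and *Rgs2* (a brake on Gq-coupled receptors) at 265 and 636 CPM (1.26).

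Genes lower at E19 included fetal growth genes and the immediate early genes *Egr2* and *Nr4a2*. *Hmga2* (a chromatin protein of fetal growth) was at 146 CPM at E15 and 32.6 CPM at E19 with a ratio of -2.14 (-2.56 to -1.74), and *Igf2bp1* (a fetal RNA-binding protein) at 49.00 and 13.5 CPM (-1.83). The fetal growth list had 0 higher and 3 lower of 20 measured genes (median -0.48), beside 1.37% higher and 1.45% lower of all genes. *Egr2* and *Nr4a2* had ratios of -2.56 and -1.85, and stress and immediate early genes together took 9564 CPM at E15 and 6559 CPM at E19. *Chga* (chromogranin A, of endocrine cells) had the lowest ratio, -4.35, from 62.9 to 2.59 CPM, but 99 of its 104 UMIs at E15 lay in 1 cell. *Cntnap2*, *Lgi2*, *Gfra1*, *Rprm*, *Flrt3*, *5430416N02Rik* and *6330403K07Rik* were the others of the 12.

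Between E19 and pup more genes were past the fold, and the outcome for contractile genes depended on the cluster. Over the whole label, 452 of 3780 genes were at least 2-fold higher (12%) and 423 at least 2-fold lower (11.2%). The contractile list had 1 higher and 15 lower of 30 measured genes (median -0.97). The list took 107505 CPM at E19 against 47185 CPM in the pup. Restricted to cluster 2 at both stages, 192 of 2900 genes were at least 2-fold higher (6.62%) and 218 at least 2-fold lower (7.52%), and the contractile list had 1 higher and 0 lower of 29 measured genes (median -0.05). Of the 192 and 218 genes, 87 and 108 were also past the fold in that direction over the whole label. Pup cluster 14 against cluster 2 at E19 had 457 higher (12.8%) and 494 lower (13.8%) of 3571 genes, and the contractile list had 1 higher and 16 lower of 30 measured genes (median -1.13). Within the pup, cluster 14 against cluster 2, 149 of 841 genes were at least 2-fold higher (17.7%) and 59 at least 2-fold lower (7.02%). The lower contractile levels of the pup label thus lay in cluster 14. In the 12 pup cells of cluster 2 the list sum was 96309.9 CPM, between cluster 2 at E15 (71902 CPM) and E19 (109378 CPM). Their median share per cell, 8.56%, also lay between those of cluster 2 at E15 (7.33%) and E19 (11.03%). Cluster 14 was low before birth as well. Its list sum was 42501 CPM in 2 cells at E15, 47646 CPM in 6 cells at E19 and 38623 CPM in the pup, and its fibroblast markers summed to 8073, 9905 and 11136 CPM. The comparisons by cluster were chosen after seeing the data.

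Single contractile genes differed between the pup clusters. *Acta2* was at 11443, 17189.7 and 16228 CPM in cluster 2 at E15, E19 and pup and 7089 CPM in pup cluster 14, so that the 12 cells stood with E19 and the 100 cells lower. *Actg2* was at 7577, 14727, 10056 and 1709 CPM in the same order, and *Myh11* at 4125, 4723, 4301 and 1551 CPM. *Tagln* differed least of the 4 markers, at 7971, 13823, 14179 and 7081 CPM. *Des* was at 305, 1362, 1775 and 224 CPM, and *Synm* at 101, 444, 619.6 and 14.96 CPM. For both, pup cluster 2 was above E19 and cluster 14 was below E15. *Cnn1* (calponin 1, which binds actin and restrains myosin) was at 2543 CPM in cluster 2 at E19, 2443 CPM in pup cluster 2 and 581 CPM in pup cluster 14. The list had 1 member past the fold in the other direction. *Ppp1r14a* (CPI-17, an inhibitor of myosin phosphatase) was at 7.26 (E15), 22.3 (E19) and 219 CPM (pup), a pup to E19 ratio of 3.27 (2.77 to 3.80).

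The regulators of smooth muscle are transcription factors and their partners, and between E19 and pup their share past the fold was near that of all genes. *Myocd* (myocardin) was at 334 (E15), 219.6 (E19) and 247 CPM (pup), and within the pup at 95.3 CPM in cluster 2 and 278 CPM in cluster 14, a ratio of 1.38 (0.42 to 2.54). The cluster with the lower contractile levels thus had the higher *Myocd* level, on 8 UMIs in cluster 2 and 130 in cluster 14. *Srf* (serum response factor) was at 38.7, 46.6 and 23.3 CPM, with a pup to E19 ratio of -0.91 (-1.84 to -0.09), which is not past the fold. *Foxf1* (a forkhead factor of gut mesenchyme) was at 365, 205 and 360.1 CPM. *Klf4*, a factor that can repress contractile genes, was at 78.03 (E15), 40.9 (E19) and 222 CPM (pup), with 23.8 CPM in pup cluster 2 and 259 CPM in pup cluster 14. *Fhl1* (a LIM protein of muscle) was at 180.2 CPM at E19 and 500.4 and 427 CPM in the pup clusters, higher in both. The list of 18 regulators had 2 higher and 0 lower of 11 measured genes (median 0.18) for the pup against E19, beside 12% higher and 11.2% lower of all genes.

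Among genes of calcium and potassium handling, *Pln* and *Atp2b4* were lower in pup cluster 14 than in pup cluster 2. *Pln* was at 39.02, 273 and 548 CPM in cluster 2 at E15, E19 and pup and 6.41 CPM in pup cluster 14, so it was past the fold above E19 in 1 pup cluster (1.03) and below it in the other (-5.003). *Atp2b4* (a plasma membrane calcium pump) was at 426 CPM in cluster 2 at E19, 465 CPM in pup cluster 2 and 165 CPM in pup cluster 14. *Cacna1c* (the pore of the L-type calcium channel) was at 70.2, 70.4 and 39.4 CPM, and *Kcnma1* (the large-conductance potassium channel) at 61.7, 74.6 and 57.3 CPM. *Kcnj8* and *Abcc9*, the pore and the regulatory subunit of an ATP-sensitive potassium channel, were at 56.9, 68.9 and 188 CPM and 62.3, 47.7 and 177 CPM. *Itpr1* (the inositol trisphosphate receptor) was at 20.6, 20.2 and 118 CPM, with a pup to E19 ratio of 2.53 (1.95 to 3.14). For pup against E19 the list had 4 higher and 2 lower of 14 measured genes (median -0.14), beside 12% and 11.2% of all genes.

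Among receptors for nerve and hormone signals, the M2 muscarinic receptor was lower in the pup over the whole label, though not in pup cluster 2, and the endothelin B receptor was higher. *Chrm2* (the M2 muscarinic acetylcholine receptor, chr6:36388084-36528414) was at 238 (E15), 251 (E19) and 46.6 CPM (pup), and its pup transcripts were mostly in the 12 cells of cluster 2, at 286 CPM against 4.27 CPM in cluster 14 (2 UMIs). *Chrm3* (the M3 receptor, which drives contraction) was at 28.4 and 24.9 CPM at E15 and E19 and at 0 UMIs in the pup, at least 4.63-fold lower than at E19 with 3 counts over the pup group as the floor. *Tacr1* (the substance P receptor) was likewise at 0 UMIs, at least 5.88-fold lower than at E19. Both had fewer than 100 UMIs over E19 and pup and are not among the measured genes. *Ednrb* (the endothelin B receptor) was at 29.04 (E15), 55.9 (E19) and 349 CPM (pup), and *Pde5a* and *Pde3a* (phosphodiesterases that clear cyclic nucleotides) were at 194, 185 and 503 CPM and 42.3, 38.8 and 204 CPM. *Gucy1a1* (a subunit of the nitric oxide receptor) was at 73.2, 50.8 and 106 CPM. The receptor list had 5 higher and 1 lower of 11 measured genes (median 0.35) for pup against E19, beside the same 12% and 11.2%.

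Over the whole label fewer pup cells held a *Chrm2* transcript, and the few that did were mostly in cluster 2. With every cell thinned to 2000 UMIs and no stomach smooth muscle cell left out, *Chrm2* was found in 49 of 111 cells (44.1%, 95% interval 34.7 to 53.9%) at E15, 55 of 160 cells (34.4%, 95% interval 27.1 to 42.3%) at E19 and 5 of 113 cells (4.42%, 95% interval 1.45 to 10.02%) in the pup. At full depth the shares were 81.98%, 71.9% and 7.96%, and within the pup 8 of 12 cells of cluster 2 (66.7%) and 1 of 100 cells of cluster 14 (1%) held one. In separate random draws, pup cluster 2 had *Chrm2* in 2 of 12 cells thinned to 2000 UMIs (16.7%, 95% interval 2.09 to 48.4%) and in 7 of 9 thinned to 5000 UMIs (77.8%, 95% interval 39.99 to 97.2%), where E19 had 58% of 150 cells, so these few cells do not fix the share. *Myocd* was found in 46.8%, 33.1% and 38.1% of thinned cells (89.2%, 81.2% and 57.5% at full depth). *Chrm3* was found in 5 of 111 and 10 of 160 thinned cells at E15 and E19 (32.4% and 23.8% at full depth) and in 0 of 113 pup cells at either depth. By 3 counts, this allows a share of pup cells with a UMI of up to 2.65%, and it sets no limit on cells that express the gene below detection. In stomach immune cells, which should lack these genes, thinned to the same depth, *Chrm2*, *Chrm3* and *Myocd* were found in 0 of 116 cells, with 8 shallower cells left out and a median of 10582 UMIs before thinning. At full depth immune cells had *Chrm2* in 3 of 124 (2.42%), *Chrm3* in 4 (3.23%) and *Myocd* in 1, but they were deeper than pup cluster 14, whose median was 4531 UMIs. Thinned to 5000 UMIs, *Chrm2* was found in 1 of 39 cells of pup cluster 14 (2.56%) and 1 of 101 immune cells (0.99%). The single *Chrm2* cell of pup cluster 14 thus cannot be told from background.

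Most measured extracellular matrix genes were higher in the pup than at E19. Between E19 and pup the list had 22 higher and 0 lower of 34 measured genes (median 1.28), against 12% of all genes higher, and the 39 genes together took 9173 (E15), 11946 (E19) and 27025 CPM (pup). *Col3a1* was at 1475 (E15), 1544 (E19) and 4139.9 CPM (pup), *Eln* (elastin) at 41.7 (E15), 129 (E19) and 562 CPM (pup), and *Bgn* (the proteoglycan biglycan) at 50.8 (E15), 107 (E19) and 708 CPM (pup). *Postn* (periostin) was at 54.4, 97.4 and 564 CPM, and *Npnt* (nephronectin, an integrin ligand) at 24.8, 89.6 and 349 CPM, although its ratio in cluster 2 was -1.10 (-3.39 to 0.48), on 2 pup UMIs. Basement membrane collagens *Col4a1* and *Col4a2* had pup to E19 ratios of 1.28 and 1.19. By cluster, it had 8 higher and 2 lower of 31 measured genes (median 0.47) in cluster 2, where 6.62% of all genes were higher and 7.52% lower. For pup cluster 14 against cluster 2 at E19 it had 24 higher and 1 lower of 34 measured genes (median 1.47), where 12.8% of all genes were higher and 13.8% lower. Already from E15 to E19, 8 of 35 measured matrix genes were past the fold upward and 1 (*Vcan*, -1.13) downward, beside 1.37% and 1.45% of all genes. Among the 8 were *Lum* (1.84), *Npnt* (1.83) and *Eln* (1.62).

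Markers of other mesenchymal cells moved with these differences. The 15 fibroblast markers summed to 2984 (E15), 3561 (E19) and 10169.6 CPM (pup), against 22801 CPM in pup stromal cells, led in each by *Col3a1*. Of the 9 measured, 7 were past the fold higher in the pup than at E19, against 12% of all genes. *Pdgfra* (a platelet-derived growth factor receptor) was at 31.5, 12.4 and 156 CPM and *Dcn* (decorin) at 83.5, 203 and 1009 CPM in muscle, against 519.6 and 2466 CPM in pup stromal cells. In the embryo *Dcn* was uneven between muscle cells. A single cell held up to 40 UMIs of it at E15 (cluster 14) and 60 at E19 (cluster 2), while most held few or none. The 2 cells of cluster 14 at E15 held 40 and 21 *Dcn* UMIs, and the 6 at E19 held 40, 7, 0, 17, 16 and 5. *Pi16* was at 0 UMIs in the pup muscle and *Cd34* at 37.6 CPM, against 275 CPM in pup stromal cells. The 11 pericyte markers summed to 361 (E15), 454 (E19) and 2547 CPM (pup), against 817 CPM in pup stromal cells. Most of the pup sum was *Rgs5*, and *Higd1b* was at 0 UMIs in muscle and stromal cells of all 3 stages. The 8 markers of interstitial cells of Cajal summed to 328 (E15), 216 (E19) and 308 CPM (pup), with *Kit* at 32.7, 10.4 and 16.1 CPM. Whether cells of these kinds lie within the pup label was not tested.

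*Rgs5* (chr1:169655501-169695813), a regulator of G-protein signalling best known from pericytes and vascular muscle, was among the 12 genes with the largest pup to E19 ratios. It was at 29.04 CPM (95% interval 21.4 to 38.5) at E15, 72.00 CPM (95% interval 60.5 to 85.01) at E19 and 1759 CPM (95% interval 1651 to 1873) in the pup. Pup cluster 2 held 334 CPM and pup cluster 14 2017 CPM, both above the E19 level over the whole label. Cluster 14 held *Rgs5* before birth as well. Its 6 cells at E19, of 4098 to 16522 total UMIs, held 1, 7, 9, 24, 11 and 7 UMIs of it. Each of its 2 cells at E15 held 6. *Enpp2* (autotaxin, which makes lysophosphatidic acid) was at 4.23 (E15), 18.1 (E19) and 940.5 CPM (pup), with 35.7 and 1113 CPM in pup clusters 2 and 14. *Pappa* (a protease of IGF-binding proteins) had the largest ratio, 6.91, from 2.07 to 309.9 CPM, and *Igfbp3* (an IGF-binding protein) went from 15.5 to 844 CPM. *Apoe*, *Ecm1*, *Cebpd*, *Gpx3*, *Zim1*, *Agt*, *Adamts1* and *Rarres2* completed the 12, with ratios of 4.55 to 5.75. Among the 12 lowest, *Tubb2b* (a beta-tubulin) was at 91.7 CPM at E19 and 0 UMIs in the pup, at least 17.1-fold lower, and *Casq1* (a calcium store protein) was at least 11.1-fold lower. *Ckm* was at 279 CPM at E19, 131 CPM in pup cluster 2 and 0 UMIs in pup cluster 14, at least 44.8-fold below cluster 2 at E19. *Smpx*, *Pcp4*, *Prkcb*, *Sh3bgr* and *9330158H04Rik* and the mitotic genes *Cenpf*, *Ccnb2*, *Prc1* and *Ccnb1* were the others.

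Genes of the hedgehog and BMP pathways differed member by member between E19 and pup. *Ptch1*, the hedgehog receptor and a target of the pathway, was at 239.5 (E15), 152 (E19) and 588 CPM (pup), and at 107 CPM in pup cluster 2 and 682 CPM in pup cluster 14. Cluster 14 held *Ptch1* before birth as well. Its 6 cells at E19, of 4098 to 16522 total UMIs, held 4, 0, 0, 21, 6 and 4 UMIs of it. Its 2 cells at E15 held 11 and 2. *Hhip* (a hedgehog-binding inhibitor and target) was at 102, 69.9 and 209.6 CPM, and *Gli1* (a factor induced by the pathway) at 55.05, 23.8 and 69.9 CPM. Of the co-receptors, *Gas1* and *Cdon* were lower in the pup over the whole label, with *Gas1* at 556 (E15), 502 (E19) and 174 CPM (pup) and *Cdon* at 69.6, 54.4 and 19.7 CPM, but not in cluster 2, where their pup to E19 ratios were 0.26 (-0.17 to 0.66) and 0.56 (-0.79 to 1.65). *Boc*, another co-receptor, was at 18.1, 19.2 and 25.1 CPM, and like *Gli1* it had too few UMIs over E19 and pup to be measured. *Ptch1* in cluster 2 had a ratio of -0.22 (-1.30 to 0.68). The list of 12 had 2 higher and 2 lower of 6 measured genes (median -0.54) for pup against E19, where 12% of all genes were higher and 11.2% lower. In the BMP and TGF-β list, the ligand *Bmp4* was at 9.68 (E15), 30.6 (E19) and 259.8 CPM (pup), and the antagonist *Grem1* was at 186, 63.2 and 158 CPM. The targets *Id1* and *Id3* were at 171, 66.3 and 138 CPM and 308, 158 and 527 CPM, and the TGF-β receptors *Tgfbr2* and *Tgfbr3* at 24.8, 31.1 and 150.5 CPM and 41.1, 58.5 and 683 CPM. From E15 to E19 the list had 0 higher and 4 lower of 17 measured genes (median -0.67), against 1.37% and 1.45% of all genes. From E19 to pup it had 9 higher and 1 lower of 16 measured genes (median 1.14), against 12% and 11.2% of all genes. *Grem1*, *Id1*, *Id4* and *Smad7* were the 4 lower at E19. In the WNT list, with 4 higher and 2 lower of 7 measured genes (median 1.17) beside those shares, the receptors *Fzd1* and *Fzd4* were higher in the pup (2.24 and 1.37) and *Fzd2* and *Ror2* lower (-1.03 and -1.41). By cluster, the WNT list took 660 CPM in cluster 2 at E19, 584 CPM in pup cluster 2 and 947 CPM in pup cluster 14. The BMP and TGF-β list took 1944, 3336 and 4948 CPM in the same groups, though its member *Id4* had a cluster 2 ratio of -0.59 (-2.90 to 0.99) against 1.65 over the label.

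Cell division transcripts were lower in the pup over the whole label, and stress transcripts higher, with smaller differences in cluster 2. The cell division list had 0 higher and 0 lower of 23 measured genes (median -0.25) at E19 against E15 and 2 higher and 16 lower of 20 measured genes (median -2.06) in the pup against E19. Of all genes, 12% were higher in the pup and 11.2% lower. The 2 higher on the list were the cell cycle inhibitors *Cdkn1a* and *Cdkn1b*. In cluster 2 alone, where 6.62% of all genes were higher and 7.52% lower, the list had 0 higher and 7 lower of 19 measured genes (median -0.55). Its sum was 7443 CPM in cluster 2 at E19, 4909 CPM in pup cluster 2 and 2167 CPM in pup cluster 14. *Mki67* (a marker of cycling cells) was at 186 (E15), 179 (E19) and 26.9 CPM (pup) and was found in 17.1%, 15% and 1.77% of cells thinned to 2000 UMIs (35.1%, 30% and 3.54% at full depth). *Ccnd1* (cyclin D1) was at 189, 211 and 21.5 CPM, lower in both pup clusters at 23.8 and 21.4 CPM. Of the 20 stress and immediate early genes, 15 were past the fold higher in the pup and 0 lower, median 2.39, and the list took 9564 (E15), 6559 (E19) and 20323 CPM (pup). In cluster 2 alone 8 of 18 measured stress genes were higher and 1 lower (median 0.57), and the list took 6554 CPM there at E19 against 10509 CPM in pup cluster 2 and 22310.3 CPM in pup cluster 14. *Fos* was at 1102 (E15), 633 (E19) and 3418 CPM (pup), and *Hspa1a* (an inducible heat shock protein) at 55.7, 30.04 and 541 CPM. In stromal cells the same list had 14 higher and 0 lower of 20 measured genes (median 1.75) for pup against E19, where 6.76% of all genes were higher and 8.82% lower. These genes are known to respond to dissociation, and their part in the other pup values was not tested.

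**Figure D2:**
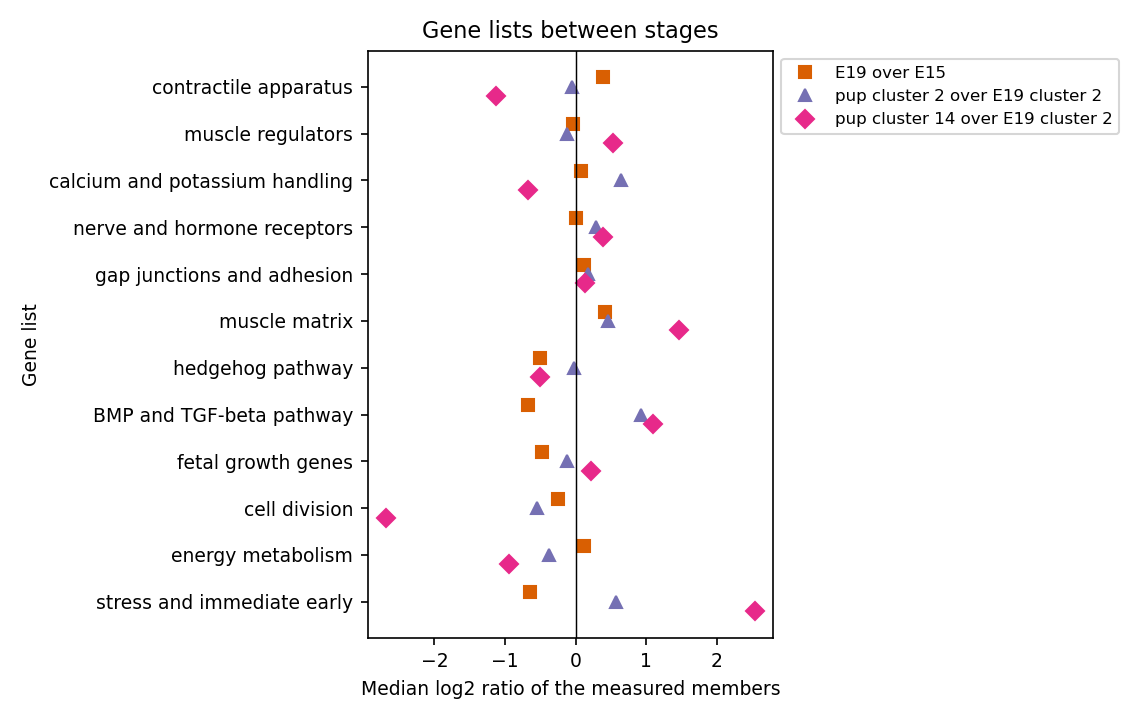
Median log2 ratio of the measured members of each gene list (horizontal axis) for E19 against E15 over the whole label, pup against E19 within cluster 2, and pup cluster 14 against cluster 2 at E19, with 1 symbol per comparison. The contractile median is -0.05 in cluster 2 and -1.13 for pup cluster 14, and the stress list stands at 0.57 and 2.54 in the same comparisons.

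Metabolic and fetal growth genes had members in both directions. *Ckb* (brain-type creatine kinase) was at 1622 (E15), 2489 (E19) and 579 CPM (pup), and *Gapdh* at 892, 969 and 353 CPM, both lower in the pup than at E19, while *Txnip* (a glucose-responsive thioredoxin inhibitor) was at 145, 147 and 758 CPM. For pup against E19 the energy list had 2 higher and 7 lower of 16 measured genes (median -0.72), beside 12% higher and 11.2% lower of all genes. Among imprinted growth genes, *Igf2* was at 457, 414 and 199 CPM, *Mest* at 106, 70.96 and 17.9 CPM and *H19* at 1229, 1237 and 1990.2 CPM, and *Peg3* and *Zim1* were at 137, 95.3 and 901 CPM and 9.68, 6.73 and 220.3 CPM. The fetal growth list had 4 higher and 5 lower of 19 measured genes (median -0.02), beside the same shares.

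Over the whole interval, pup against E15, 375 of 3660 genes were at least 2-fold higher (10.2%) and 459 at least 2-fold lower (12.5%). Median-of-ratios scaling gave 438 higher and 357 lower. *Enpp2* (7.61), *Adamdec1* (6.25), *Igfbp3* (6.06) and *Rgs5* (5.89) had the largest ratios, and *Tubb2b*, *Rprm*, *Kcnd3* and *Gna14* the lowest. The contractile list had 1 higher and 7 lower of 30 measured genes (median -0.37). Within cluster 2 the order was turned, as the list took 71902 CPM at E15 against 96309.9 CPM over the 12 pup cells, and *Actg2* (0.41) and *Cnn1* (0.24) were above their E15 levels.

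Against stromal cells of the stomach, nearly all measured contractile genes were higher in smooth muscle at each stage. The classes were named from expression, so these values describe the labels. At E15 325 of 7378 genes were at least 2-fold higher (4.4%) and 631 at least 2-fold lower (8.55%), at E19 433 of 8725 genes were at least 2-fold higher (4.96%) and 1175 at least 2-fold lower (13.5%), and in the pup, with 78 stromal cells, 129 of 1720 genes were at least 2-fold higher (7.5%) and 103 at least 2-fold lower (5.99%). With the 12 pup cells of cluster 2 alone the balance was turned, at 79 of 787 genes higher (10%) and 174 lower (22.1%), of which 28 and 68 were shared with the whole label. The median of all genes was -0.15 at E15 and -0.26 at E19, and median-of-ratios scaling gave 414 higher and 482 lower at E15 and 632 higher and 757 lower at E19. On the contractile list 28 of 30 measured genes were past the fold higher at E15, 28 of 30 at E19 and 25 of 26 in the pup, with medians of 2.79, 2.55 and 2.59. At all 3 stages, 60 of 1699 genes were past the fold higher (3.53%) and 55 lower (3.24%). *Actg2* stood first by its smallest ratio, 4.78, followed by *Tagln*, *Myh11*, *Cnn1*, *Tpm2*, *Mylk*, *Acta2*, *Rgs2*, *Lmod1*, *Fbxl22*, *Myl9* and *Tpm1*. Genes lower in muscle at each stage were led by *Cd34*, *Dlk1* and *Vcan*, with *Dpt*, *Fbln1*, *Thbs2*, *Itm2a*, *Spry2*, *Klf4*, *Rnase4* and *Ank2*, and several of them are matrix genes of fibroblasts. The matrix list had 4 higher and 23 lower of 37 measured genes (median -1.39) at E15, 4 higher and 23 lower of 39 measured genes (median -1.54) at E19 and 2 higher and 11 lower of 33 measured genes (median -0.60) in the pup. *Lama5* and *Hspg2*, laminin and perlecan of basement membrane, were exceptions in the embryo, at 2.67 and 1.53 at E15.

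Several genes stood, over the whole label, on opposite sides of stromal cells in embryo and pup. *Ppp1r14a* was lower in muscle at E15 (-3.70) and E19 (-2.88) and higher in the pup (2.30). *Ptch1* was at 455, 686 and 177 CPM in stromal cells, against 239.5, 152 and 588 CPM in muscle, so the order of the classes differed between E19 and pup. *Pitx1* (a homeodomain factor) was at 143, 293 and 71.7 CPM in stromal cells and 57.5, 109 and 259.8 CPM in muscle, *Ednrb* at 135, 309 and 80.6 CPM and 29.04, 55.9 and 349 CPM, and *Rgs5* at 245, 239 and 352 CPM and 29.04, 72.00 and 1759 CPM. Most pup muscle cells lay in cluster 14. In cluster 2 alone the muscle pup to E19 ratios were -0.22 (-1.30 to 0.68) for *Ptch1* and -0.996 (-2.89 to 0.39) for *Pitx1*. For *Ednrb* the ratio there was 1.76 (0.87 to 2.55). The stromal label changed clusters too. At E19 it held 271 cells of cluster 3, 263 of cluster 6 and 162 of cluster 1, and in the pup 60 of 78 cells were in cluster 12. Of 3699 genes measured in both classes between E19 and pup, 28 were past the fold in opposite directions.

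**Figure D3:**
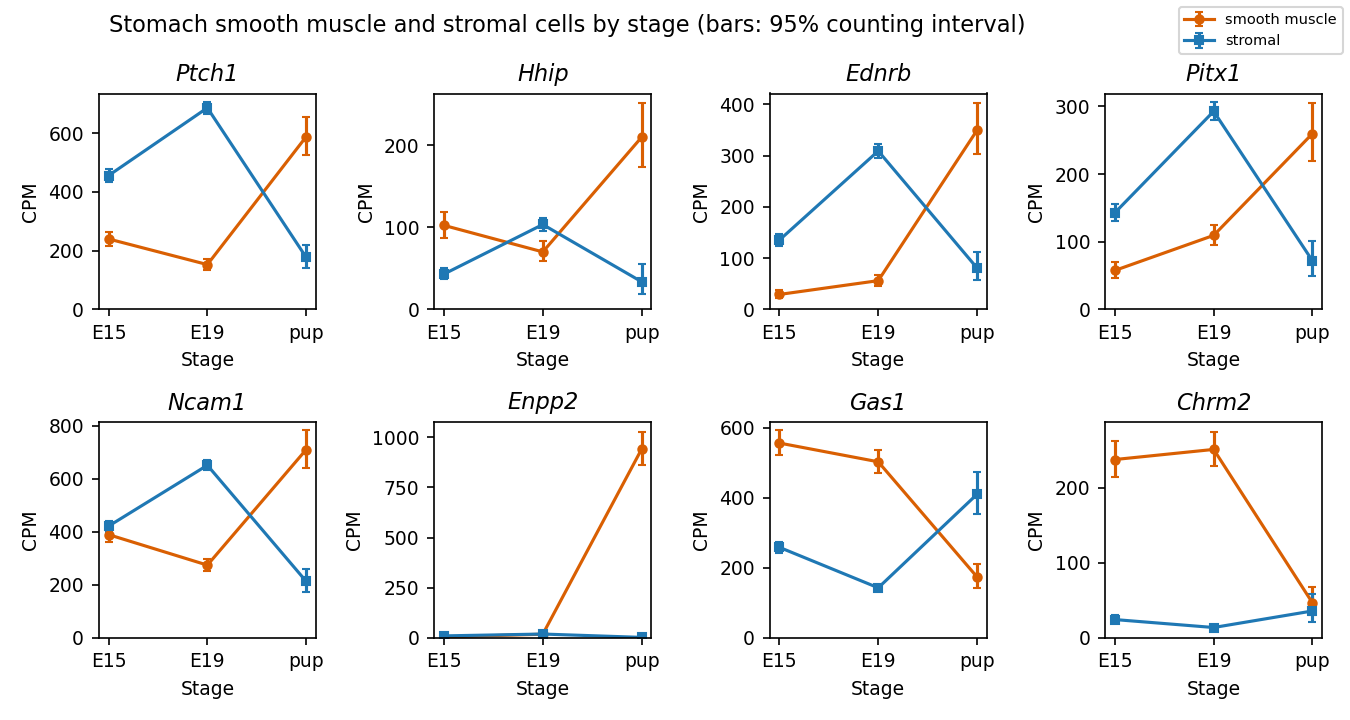
Levels (vertical axes, CPM from 0) of selected genes at E15, E19 and pup (horizontal axes) in stomach smooth muscle and stomach stromal cells, with lines joining the 3 stages and bars for 95% counting intervals. Over the whole label *Ptch1* is higher in stromal cells at E19 (686 against 152 CPM) and higher in muscle in the pup (588 against 177 CPM).

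Pup cluster 14 was also set beside the stromal clusters of E19, a comparison chosen after seeing the data. *Ptch1* was at 682 CPM in pup cluster 14 and at 126, 525 and 1099 CPM in E19 stromal clusters 1, 3 and 6. In the same order *Pitx1* was at 303 against 33.3, 408 and 295 CPM, and *Acta2* at 7089 against 298, 2349.7 and 971 CPM. *Rgs5* was at 2017 against 147, 397 and 127 CPM. Against cluster 3, 379 of 4999 genes were at least 2-fold higher (7.58%) and 566 at least 2-fold lower (11.3%), and the contractile list had 19 higher and 0 lower of 28 measured genes (median 1.34). The matrix list had a median of -0.01 there, and 21 of 24 cell division genes were lower in pup cluster 14. Against pup stromal cells, 127 of 1565 genes were at least 2-fold higher (8.12%) and 91 at least 2-fold lower (5.81%) in pup cluster 14, and the contractile list had 22 higher and 0 lower of 25 measured genes (median 2.30).

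Against esophageal smooth muscle, the transcription factors *Barx1* and *Pitx1* were higher in the stomach at each stage and *Six2* in the embryo. *Barx1* (a homeodomain factor of stomach mesenchyme, chr13:48662998-48666507) was at 621, 581 and 437 CPM in stomach muscle at E15, E19 and pup and 52.9, 8.65 and 34.9 CPM in esophageal muscle, with log2 ratios of 3.53, 5.75 and 3.33. *Pitx1* was at 57.5, 109 and 259.8 CPM in the stomach and 7.94, 6.49 and 34.9 CPM in the esophagus. *Six2* (a homeodomain factor) was at 141, 89.6 and 68.1 CPM in the stomach and 4.41 CPM in the esophagus at E15, and it was at 0 UMIs in the esophagus at E19, where the stomach was at least 13.8-fold higher. At E15 171 of 4279 genes were past the fold higher in the stomach (4%) and 117 lower (2.73%). At E19 the counts were 164 (4.65%) and 110 (3.12%) of 3529, and in the pup, with 22 esophageal cells, 141 (13.3%) and 64 (6.04%) of 1059. Past the fold at each stage were 6 of 1004 genes higher (0.598%), *Barx1*, *Pitx1*, *Itih5*, *Thbs1*, *Cped1* and *Sfrp1*, and 3 lower (0.299%), *Ednrb*, *Ppp1r12a* and *Cpe*. *Sfrp1* (a secreted WNT antagonist) was at 366, 216 and 407 CPM in the stomach, and *Ednrb* at 362, 1005 and 942 CPM in the esophagus. The cell division list had 8 higher and 0 lower of 23 measured genes (median 0.71) at E15 in the stomach against the esophagus. In the pup the contractile list had 1 higher and 14 lower of 29 measured genes (median -0.99), where 88.5% of stomach cells and 3 of 22 esophageal cells were in cluster 14, so region and cluster cannot be told apart over the whole label.

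Fewer genes were past the fold between stomach and GE-SCJ smooth muscle. Past the fold were 62 higher (1.22%) and 66 lower (1.3%) of 5073 genes at E15, 35 (0.613%) and 86 (1.51%) of 5709 at E19, and 11 (0.583%) and 22 (1.17%) of 1888 in the pup. Only *Sfrp2* (a secreted WNT antagonist) was past the fold at each stage, of 1797 genes (0.0556% lower and 0% higher). It was at 53.8, 63.2 and 53.7 CPM in the stomach and 127, 225 and 274 CPM at the GE-SCJ. The Hox gene *Hoxa5* was at 55.05 and 55.9 CPM in the stomach and 158 and 134 CPM at the GE-SCJ in the embryo, and *Six2* was higher in the stomach at E15 (2.58) and E19 (1.64). *Grem1* was at 38.7 and 26.5 CPM at the GE-SCJ in the embryo, with stomach to GE-SCJ ratios of 2.25 and 1.24. With cluster 14 alone in both regions of the pup, 14 of 1511 genes were at least 2-fold higher (0.927%) and 23 at least 2-fold lower (1.52%). *Rgs5* was then at 2017 CPM in the stomach and 689 CPM at the GE-SCJ, a ratio of 1.55 (1.36 to 1.74), and *Sfrp2* had a ratio of -2.56 (-3.21 to -1.96). For cluster 14 of both regions the contractile list had 0 higher and 0 lower of 26 measured genes (median 0.13).

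**Figure D4:**
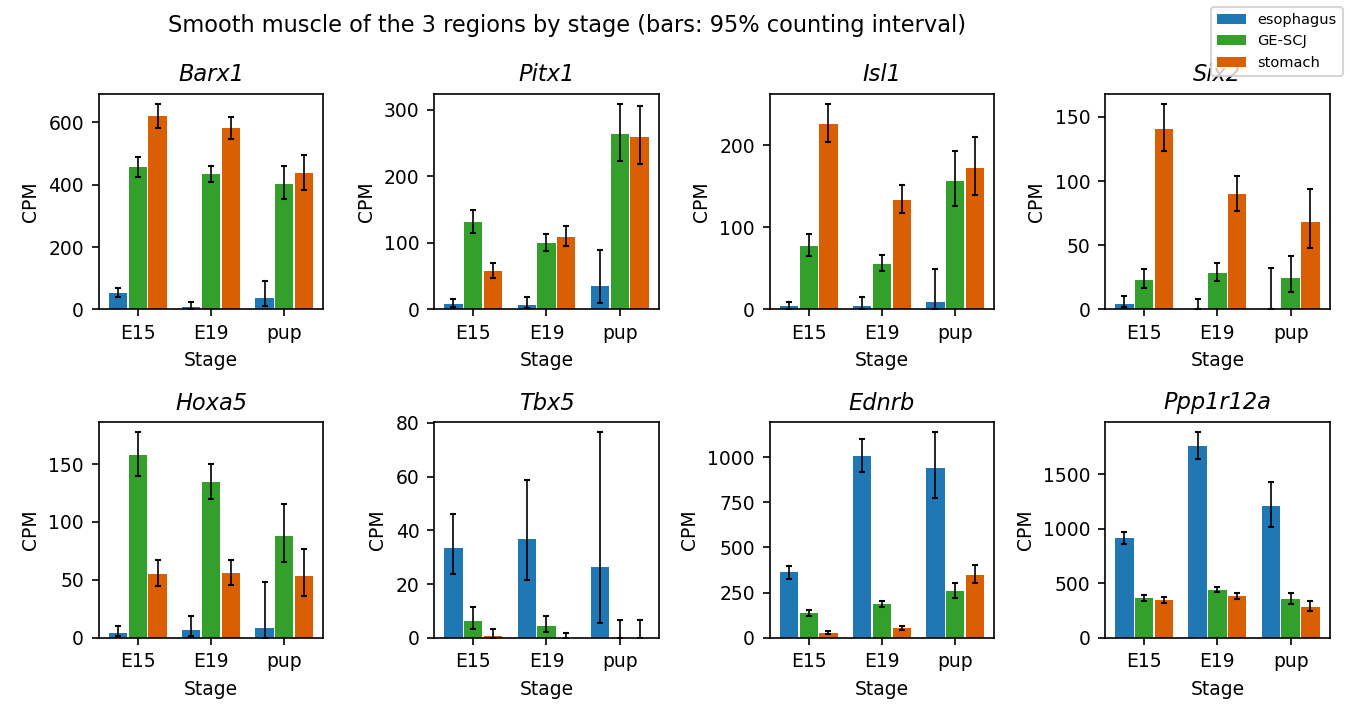
Levels (vertical axes, CPM from 0) of selected genes in smooth muscle of esophagus, GE-SCJ and stomach at E15, E19 and pup (horizontal axes), with bars to the level of each group and lines for 95% counting intervals. *Barx1* in the stomach stands at 621, 581 and 437 CPM at the 3 stages, above the esophagus at each.

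Of stomach cells, smooth muscle made up 14.96% (95% interval 12.5 to 17.7%) at E15. The share was 11.4% (95% interval 9.79 to 13.2%) at E19 and 18.3% (95% interval 15.3 to 21.6%) in the pup. With each cell classed instead by the marker list that took most of its UMIs, the shares were 14.96%, 12.5% and 11.003%, so the pup then stood below E19. Each stage is 1 sample, so no difference in share could be tested, and the part of dissociation and of the filters on cells was not tested.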

How the data were processed

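Dissociated cells of mouse esophagus, GE-SCJ and stomach, from E15 embryos to adults, were profiled as 1 pool. The authors aligned and counted reads with Cell Ranger 6.1.1 (build mm10, per the labels), assigned cells to region and stage by their tags, filtered them, clustered them (resolution 0.5) and named the classes. The authors deposited raw UMI counts for 19550 genes in 7808 cells (107865155 UMIs), with totals, cluster numbers and labels, and the percentage of mitochondrial UMIs that the authors computed for each cell. Tags agreed between both cell lists and totals matched the counts in all 7808 cells, and 0 barcodes were repeated. Labels were used as deposited, with no further doublet caller. Columns of per-sample values left unused numbered 0.

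Levels (CPM) are a group's summed UMIs of a gene over its total UMIs. With 1 pooled sample per group, no test was run. Intervals are exact Poisson (levels), exact conditional (ratios) and Clopper-Pearson (shares) at 95% and cover counting error only. Genes with at least 100 UMIs over both groups were compared, and past the fold means a log2 ratio of at least 1 in size.

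Named genes were members of the lists, 12 genes per direction, by size of ratio, between stages, among genes whose level was at least 20% of that in the highest other stomach class (classes of at least 20 cells), 12 per direction by the smallest ratio over the 3 stages against stromal cells, 8 likewise against each other region, and the 10 most abundant. Cells and lists were chosen with earlier results of these data known. The 14 genes opposite in both classes are named after their values were seen. The calculation was tested on simulated counts. The software was matplotlib 3.10.9, scipy 1.17.1, numpy 2.4.6 and pandas 2.3.3 under Python 3.11.15. Gene positions are from the GENCODE annotation of GRCm38, where all 519 genes looked up were found, and start regions from RefSeq (GRCm38.p6). Some genes of the lists and of the naming rule are not reported here.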

Additional observations from a re-analysis of the deposited data

Results flagged for a closer look

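Between E19 and pup, 14 named genes were past the fold in opposite directions in smooth muscle and in stromal cells of the stomach. The difference between the classes was not tested, since each class is 1 sample per stage. Values are log2 ratios of pup over E19, in muscle and then in stromal cells. Higher in muscle and lower in stromal cells were *Enho* (1.05 and -1.76), *Col15a1* (2.29 and -1.21), *Tmem176a* (2.78 and -1.35), *Ppp1r14a* (3.27 and -1.90), *Hhip* (1.59 and -1.53), *Ncam1* (1.37 and -1.60), *Col6a4* (2.81 and -2.14), *Pitx1* (1.25 and -1.99), *Ptch1* (1.95 and -1.94), *Ednrb* (2.64 and -1.90) and *Enpp2* (5.66 and -2.09). Lower in muscle and higher in stromal cells were *Chrm2* (-2.38 and 1.45), *Ucp2* (-1.05 and 1.42) and *Gas1* (-1.52 and 1.53). In cluster 2 at both stages 11 of the 14 were measured, and 7 of them had the opposite sign to the whole label, *Chrm2* (0.20), *Enho* (-0.62), *Gas1* (0.26), *Hhip* (-0.40), *Pitx1* (-0.996), *Ptch1* (-0.22) and *Ucp2* (0.46), each with an interval that included 0. The 14 were among 28 such genes of 3699 measured in both, and 260 genes were past the fold in the same direction. Both labels changed clusters between the stages, muscle from cluster 2 to 14 and stromal cells from clusters 1, 3 and 6 to 12, and class and cluster cannot be told apart here.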

How the results depend on the processing

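No paired analysis was possible because each group was 1 pooled sample. Counts of genes past the fold, in the order E19 against E15, pup against E19, pup against E15, stromal at E15, E19 and pup, esophagus and GE-SCJ at all stages, were 146, 875, 834, 956, 1608, 232, 9 and 1. They were 22, 236, 194, 245, 559, 91, 1 and 0 with cells thinned to 2000 UMIs, 650, 2539, 2559, 2007, 2815, 1031, 49 and 15 from 20 UMIs on and 2732, 5168, 5157, 3819, 4527, 3950, 322 and 84 with no filter, where low counts add chance ratios by construction. In cluster 2 alone, chosen after seeing the data, pup against E19 had 410, pup against E15 478, the esophagus comparison 2 and the GE-SCJ comparison 0. The GE-SCJ count was 2 under median-of-ratios scaling, means over cells, library sizes without mitochondrial, ribosomal protein and hemoglobin genes, and with the top 1% of cells left out. In cluster 2 alone the pup to E19 ratio was reversed for *Des* (0.39) and *Synm* (0.51), and the pup to E15 ratio for *Actg2* (0.41), *Cnn1* (0.24), *Myh11* (0.064) and *Myl9* (0.011), on 12 pup cells. More widely, of 141 list and named genes past the fold between pup and E19 over the whole label and measured in cluster 2, 25 had the opposite sign there, with *Pln* (1.03) and *Npnt* (-1.10) past the fold. No other setting reversed a contractile gene or a gene named by the size of its ratio. Cells classed by the marker list with most UMIs gave smooth muscle as 11.003% of pup stomach cells. Pup genes at 0 UMIs may be at up to 5.37 CPM.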
